A study of Homo sapiens with 4 samples.

Results

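The E2F and DP transcription factors were followed in NGP, an established neuroblastoma line, with and without Nutlin-3. The members were the table rows whose Ensembl identifier carries one of 10 symbols, E2F1 to E2F8, TFDP1 and TFDP2. All 10 were found among 25693 human genes, each as a single row, and all 10 passed the filter on low counts that kept 14830 genes. Polyadenylated RNA was read at its 3' end on the ddSeq droplet device in 4 libraries, 2 with Nutlin-3 and 2 with ethanol, the solvent. Every library came from cells starved of serum to align their cycles and then exposed for 24 h, and within a treatment the libraries differed in the dilution of the added ERCC RNAs, 1000-fold or 10000-fold. NGP carries amplified MYCN and responds to Nutlin-3, a small molecule that keeps MDM2 from binding p53, and it stands for 1 line only.

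E2F proteins bind DNA as pairs with a DP protein, or in the case of E2F7 and E2F8 without one, and switch the genes of S phase on or off. E2F1, E2F2 and E2F3 are the activators, held in check by the RB protein until cyclin-dependent kinases phosphorylate it. E2F4 and E2F5 work mainly as repressors together with the pocket proteins p107 and p130, and E2F6, E2F7 and E2F8 repress without any pocket protein. When p53 is released it raises the kinase inhibitor p21, which keeps RB and its relatives active. Several E2F genes are themselves E2F targets, and E2F7 has been described as a target of p53.

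The window before the start of each activator gene is shown because these genes are known to carry E2F sites of their own. The windows are 130 bases long, end at the base before the RefSeq start in GRCh38.p14, and read 5' to 3' on the strand of the gene. Capitals mark matches to TTTCGCG or to one of TTTCCCGC, TTTCGCGC, TTTGCCGC and TTTGGCGC on either strand, and neighbouring matches may overlap. E2F1 lies at chr20:33686386-33686515 on the minus strand, E2F2 at chr1:23531234-23531363 on the minus strand and E2F3 at chr6:20401749-20401878 on the plus strand.
E2F1: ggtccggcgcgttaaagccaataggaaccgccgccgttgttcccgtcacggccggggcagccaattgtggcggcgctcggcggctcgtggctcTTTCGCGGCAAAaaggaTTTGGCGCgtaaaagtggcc
E2F2: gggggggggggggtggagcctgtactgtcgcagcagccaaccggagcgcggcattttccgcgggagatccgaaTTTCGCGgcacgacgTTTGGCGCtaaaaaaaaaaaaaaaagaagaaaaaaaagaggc
E2F3: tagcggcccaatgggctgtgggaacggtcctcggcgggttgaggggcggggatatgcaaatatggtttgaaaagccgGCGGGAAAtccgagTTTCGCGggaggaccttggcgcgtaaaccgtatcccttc
In E2F1 the letters TTTCGCG begin 37 bases before the start and TTTGGCGC begins 20 bases before it, and an 8-letter match on the other strand, 33 to 26 bases before the start, overlaps the first of them. In E2F2 the same letters begin at 57 and 42 bases, and in E2F3 TTTCGCG begins at 39 bases, after a match on the other strand that begins at 53. The RefSeq table held 11 windows for 8 of the members, with E2F5 and E2F8 missing. Over the 250 bases before the start, TTTCGCG was found in 4 of the 11, for E2F1, E2F2, E2F3 and TFDP1, and in 1.10% of 35116 windows of all genes. The 8-letter forms were found before the same 4 genes and in 2.79% of all windows. The letters were chosen after the windows of the members had been seen, so these shares are no test of enrichment. A match is a string of letters and shows no binding, and no window of the other start of E2F3 or of E2F4, E2F6, E2F7 or TFDP2 held either motif.

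The deposited table sets limits on every value below. Its columns are named as treated or untreated, 250 of each, and no name tells the library, so each treatment is 1 pool of 1301232 human counts for Nutlin-3 and 1342134 for ethanol. There are no replicates and no test between treatments was run. Every interval covers counting error only and assumes independent counts. The treatments shared 219 of their 250 column names, and the totals of same-named columns correlated across treatments (Pearson's r of log totals 0.991, over 219 names), so columns are not treated as separate cells. Totals formed 2 classes, and the 113 large columns of each treatment, those above 4000 counts, carried the same 113 names and 88.7% of the ethanol and 89.2% of the Nutlin-3 counts. Fewer cells with a transcript and less transcript per cell cannot be told apart in these pools. The marks of the line were present. All 11 adrenergic markers had rows, with HAND2 and TH in 100% of the large columns of each treatment. Of 11 markers of immune, epithelial, fibroblast and endothelial cells, 5, PTPRC among them, had no row in the table as used here. The other 6 had 85 ethanol and 101 Nutlin-3 counts together. Of 7 mesenchymal-state markers 6 had rows. SNAI2 was in 61.9% of large ethanol and 46.9% of large Nutlin-3 columns, FN1 in 31.9% and 16.8%, and COL1A1 in 23.9% and 38.1%. Of the 4 that passed the filter, 3 were lower and 1 was higher in Nutlin-3. The treatment was visible in CDKN1A, the gene of p21, with 70 ethanol and 188 Nutlin-3 counts, and in MDM2, with 315 and 504.

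E2F8 was the member that separated the treatments most. It gave 81 ethanol (95% Poisson interval 64.3 to 101) and 22 Nutlin-3 counts (13.8 to 33.3), so the pools did not overlap in their counting error. Its log2 ratio (the log2 fold change, Nutlin-3 relative to ethanol) was -1.81 (95% counting interval -2.59 to -1.14), which compares counts before any allowance for stray ones. E2F2 was the other member whose interval lay below 0, with 126 counts in ethanol and 86 in Nutlin-3. The remaining 8 members had intervals that included 0. Of all genes that passed the filter, 3.57% had an interval wholly below 0. The log2 ratios of the remaining 8 members ran from -0.30 for E2F6 to 0.10 for E2F3.

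With a log2 ratio of 0.32 in size as the fold limit, 2 of the 10 members were lower in Nutlin-3 and 0 were higher, where 12.4% of all 14830 genes were lower and 14.9% were higher by as much. With a fold of 1.5, 1 member was lower and 0 higher, against 5.85% and 7.81% of all genes. The share of genes lower past the limit depended on level. It was 20.3% among genes with the counts of E2F8, 10.8% at the level of E2F7, 4.90% at that of E2F1, E2F2, E2F5 and E2F6, 1.03% at that of E2F4 and TFDP2, and 0.527% at that of E2F3 and TFDP1. The median log2 ratio of the members was -0.15, and that of all genes was 0.00, with 7 members and 50.3% of all genes below 0. Summed over the family there were 1140 counts in ethanol and 965 in Nutlin-3, a log2 ratio of -0.19 (-0.32 to -0.07). With the added ERCC RNAs as the scale, whose 2 dilutions are mixed in each pool, the sum was at -0.66, the median of all genes was at -0.47, and E2F3, E2F4 and E2F5 turned from above to below 0. E2F8 made up 7.11% of the family counts in ethanol and 2.28% in Nutlin-3.

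**Figure D1:**
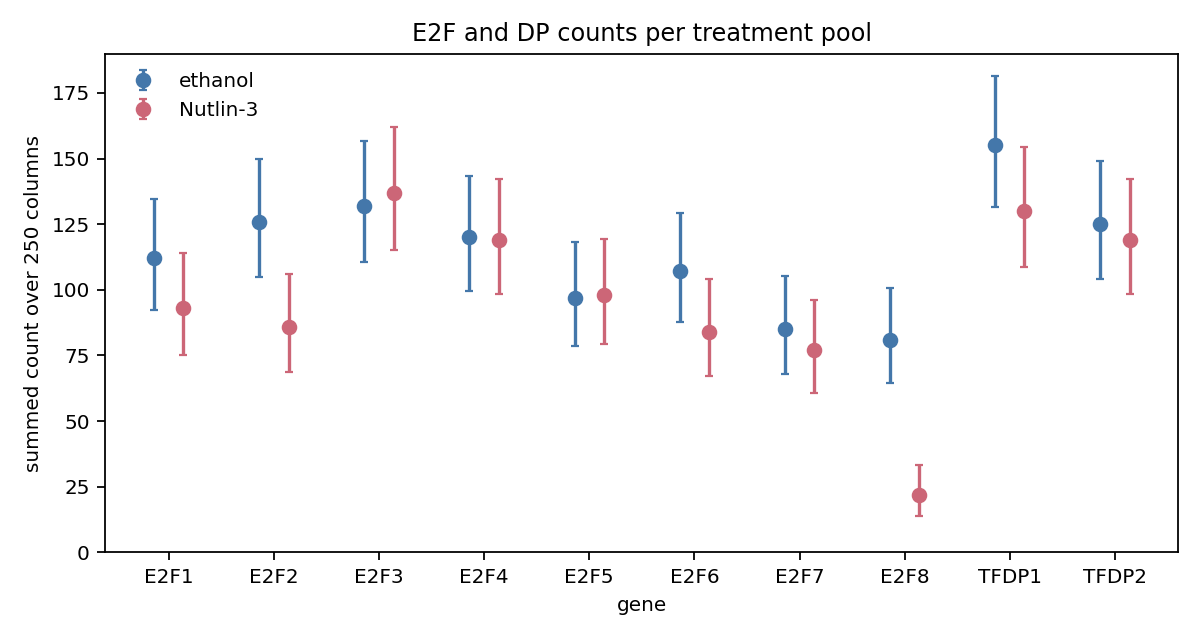
Summed counts of the 10 genes over 250 columns in ethanol and in Nutlin-3, with 95% Poisson intervals as bars. E2F8 stands at 81 and 22 counts, while E2F3, E2F4, E2F5 and TFDP2 lie almost level between the treatments.

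Among the activators, E2F2 differed most. E2F2 (ENSG00000007968) lies on chromosome 1 from 23506430 to 23531220, a position that, like those of the other genes, comes from GENCODE release 29 on GRCh38, and it drives S phase genes in dividing cells. Its 126 counts in ethanol (105 to 150.0) and 86 in Nutlin-3 (68.8 to 106) gave a log2 ratio of -0.50 (-0.92 to -0.10), with Poisson intervals that met only at their ends. E2F1 (ENSG00000101412, chromosome 20, 33675683 to 33686404), the founding member and also a trigger of apoptosis, gave 112 ethanol (92.2 to 135) and 93 Nutlin-3 counts (75.1 to 114). The intervals overlapped and the log2 ratio was -0.22 (-0.63 to 0.19). E2F3 (ENSG00000112242, chromosome 6, 20401906 to 20493715), which makes an activating and a shorter form from separate starts, gave 132 ethanol (110 to 157) and 137 Nutlin-3 counts (115 to 162). Its log2 ratio was 0.10 (-0.26 to 0.46). Reads from the 3' end do not separate the E2F3 forms. The sum of the activators was 370 in ethanol and 316 in Nutlin-3, a log2 ratio of -0.18 (-0.40 to 0.04).

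The pocket-bound repressors were nearly equal in the pools. E2F4 (ENSG00000205250, chromosome 16, 67192169 to 67198918), the main E2F of resting cells, gave 120 ethanol (99.5 to 143) and 119 Nutlin-3 counts (98.6 to 142), at a log2 ratio of 0.03 (-0.34 to 0.41). E2F5 (ENSG00000133740, chromosome 8, 85177225 to 85217158) had 97 (78.7 to 118) and 98 (79.6 to 119), at a log2 ratio of 0.06 (-0.36 to 0.48). An antisense neighbour that overlaps E2F5, C8orf59, had 137 and 140 counts, and whether the counting used strand is not given in the sources used here, so the E2F5 value is uncertain. Together E2F4 and E2F5 had 217 counts in each treatment, and the interval of their summed log2 ratio, -0.23 to 0.32, covers differences in either direction. E2F4 held 0.991 counts per large column in ethanol and 0.982 in Nutlin-3, mostly single counts. Its pooled count is thus close to a number of columns and may not show a moderate difference.

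The repressors that need no pocket protein were lower as a sum, and E2F8 made most of the difference. Their sum was 273 in ethanol and 183 in Nutlin-3, a log2 ratio of -0.53 (-0.81 to -0.26). This interval rests largely on E2F8, since those of E2F6 and E2F7 each included 0. The Nutlin-3 count of E2F8 in the sum is not read as expression, for the reason given below. E2F6 (ENSG00000169016, chromosome 2, 11444375 to 11466177), which works in the polycomb complex PRC1.6, gave 107 ethanol (87.7 to 129) and 84 Nutlin-3 counts (67.0 to 104), at a log2 ratio of -0.30 (-0.73 to 0.12). E2F7 (ENSG00000165891, chromosome 12, 77021247 to 77065580) had 85 (67.9 to 105) and 77 (60.8 to 96.2), at a log2 ratio of -0.10 (-0.56 to 0.37). The intervals of E2F6 and of E2F7 overlapped between treatments. E2F7 and E2F8 are the atypical members, with a doubled DNA-binding domain, and are often described as acting together. Here the interval of E2F8 (ENSG00000129173, chromosome 11, 19224063 to 19241620), -2.59 to -1.14, did not overlap that of E2F7.

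The DP partners were present in both pools. TFDP1 (ENSG00000198176, chromosome 13, 113584721 to 113641470), the usual partner of E2F1 to E2F6, gave 155 ethanol (132 to 181) and 130 Nutlin-3 counts (109 to 154), at a log2 ratio of -0.21 (-0.56 to 0.14). TFDP2 (ENSG00000114126, chromosome 3, 141944428 to 142149544) had 125 (104 to 149) and 119 (98.6 to 142), at a log2 ratio of -0.02 (-0.40 to 0.35). Both pairs of Poisson intervals overlapped. A processed pseudogene inside TFDP2 on the same strand, AC133435.1, had 56 and 61 counts of its own. Of 10 annotated pseudogene copies of the members, 1 was in the table, E2F3P2, with 1 count in ethanol and 2 in Nutlin-3.

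How far a fold change can be read depended on the level of the gene. In the large columns 95.1% of the 1848 nonzero values of the members were equal to 1, and the highest was 3. The variance over mean of a member between large columns ran from 0.060 to 0.812, below the value of 1 that independent counts would give. E2F3 in ethanol had 1 count in 106 of 113 large columns, 2 or more in 5 and none in 2. The cause of this even spread was not tested. The Poisson and binomial intervals assume independent counts, so their stated coverage need not hold here, whether 2 intervals overlap or not. Over all genes the spread of fold changes narrowed with level. The central 95% ran from -0.89 to 1.08 in log2 for the 2184 genes with 60 to 120 counts in both pools together, where E2F8 lies. It ran from -0.41 to 0.36 for the 1958 genes with 180 to 220 counts, the range of E2F1, E2F2, E2F5 and E2F6. For the 1898 genes with 260 to 320 counts, where E2F3 and TFDP1 lie, it ran from -0.24 to 0.22.

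Read against genes of its own level, E2F8 was at the edge. Of the 2184 genes with 60 to 120 counts, 3 were as low as E2F8 or lower, itself included. Over all 14830 genes, 38 were as low, and E2F8 held the most counts of those 38. E2F2, at -0.50, was below the central 95% of its level, and E2F6, at -0.30, was inside it. TFDP1, at -0.21, was also inside the central range of its level.

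**Figure D2:**
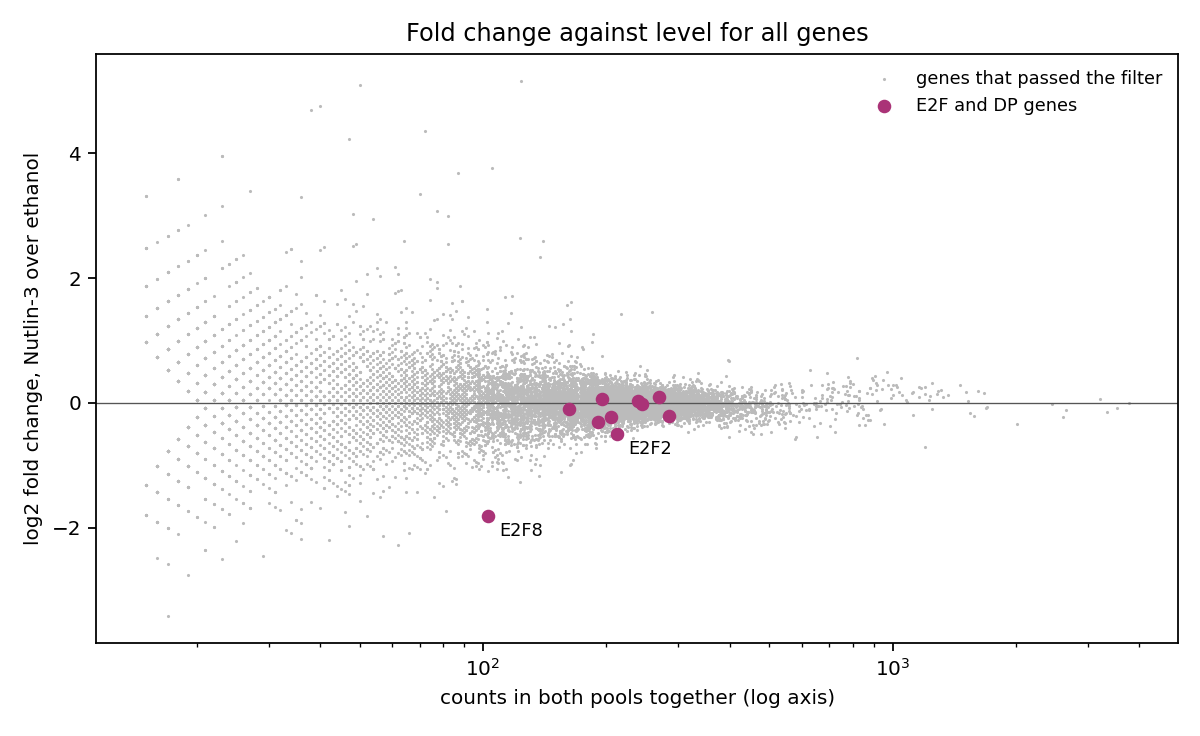
Log2 ratio, Nutlin-3 to ethanol, against the counts of both pools together (log axis) for genes that passed the filter and had a count in each pool, with the 10 members enlarged. The cloud narrows to the right, and E2F8, at 103 counts and -1.81, sits at its lower edge.

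Because a large column mostly holds 0 or 1 count of a member, the number of large columns with a count is a second view of the same data. In ethanol 75 of 113 large columns held E2F8 (66.4%, exact binomial 95% range 56.9 to 75.0), and with Nutlin-3 22 of 113 did (19.5%, 12.6 to 28.0), at median totals of 10763 and 10647 counts. No other gene of the 14830 lost as many large columns, the change of E2F8 being -53, where the median over genes was -1 and the central 95% spanned -21 to 18. E2F2 went from 109 columns (96.5%, 91.2 to 99.0) to 81 (71.7%, 62.4 to 79.8), a change of -28 that 0.789% of all genes reached. E2F6 went from 97 to 79 columns, a change reached by 4.30% of genes, and E2F1 from 102 to 89, reached by 8.86%. E2F7 was seen in 82 and 73, a change reached by 16.9%. These shares are over all genes and not matched for level, and a gene seen in few ethanol columns cannot lose many. For E2F3, E2F4, E2F5, TFDP1 and TFDP2 the number moved by at most 4 columns. E2F3, E2F4, TFDP1 and TFDP2 were in at least 104 of the 113 columns in ethanol, so this number has little room to rise for them. From such a start a fall can show, as it did for E2F2, but a moderate one may be missed. Most nonzero values of E2F3, E2F4, TFDP1 and TFDP2 there are 1, so their summed counts may share these limits.

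**Figure D3:**
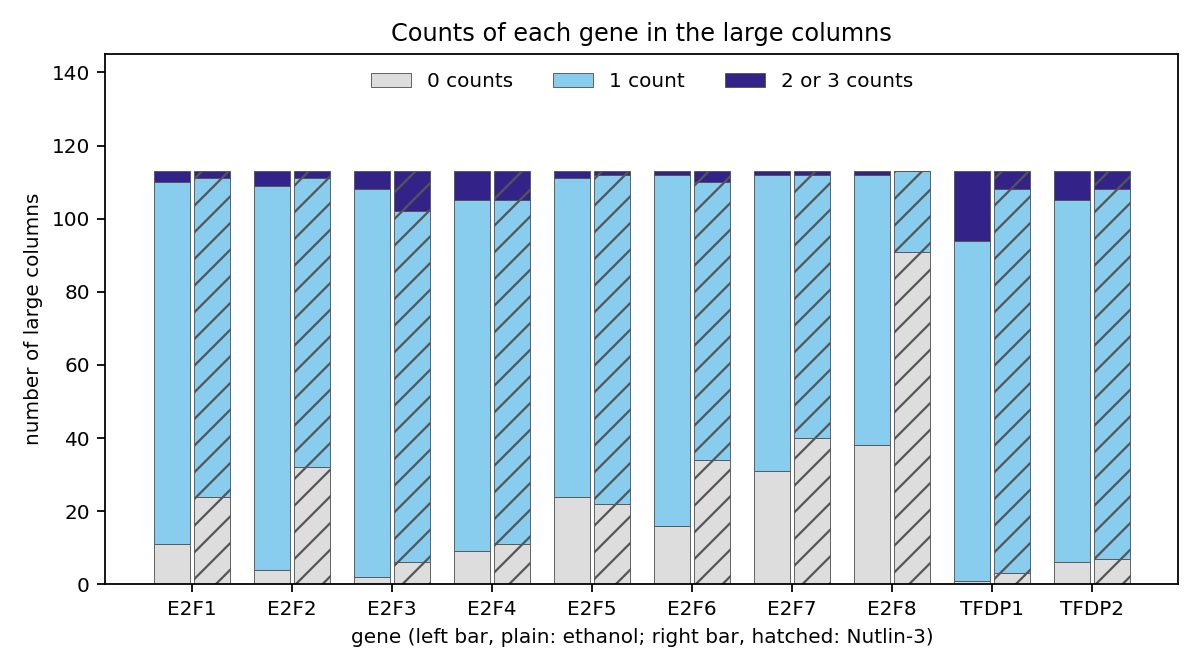
Number of the 113 large columns of each treatment with 0, 1 or more counts of each gene, ethanol as plain bars and Nutlin-3 as hatched bars. Columns without E2F8 number 38 in ethanol and 91 in Nutlin-3, and those without E2F2 number 4 and 32.

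The names shared by large columns allowed the same count by name. For each gene the gap between the one-sided numbers is fixed by the column numbers above, so this view adds no separate support. The like numbers over all genes are not given. For E2F8, 61 names had a count in ethanol only and 8 in Nutlin-3 only, with 14 in both and 30 in neither. For E2F2 the one-sided names numbered 30 in ethanol and 2 in Nutlin-3, and for E2F1 15 and 2. For E2F6 they numbered 28 and 10. The split was more even for E2F7, with 26 and 17, for E2F4, with 10 and 8, and for E2F5, with 12 and 14. A large ethanol column held a median of 9 of the 10 members, and a large Nutlin-3 column a median of 8. All 10 members were seen together in 36 large columns with ethanol and 5 with Nutlin-3, a number that E2F8, present in 75 and 22, limits by itself.

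No cell type that lacks these genes was present, so markers that a neuroblastoma line should lack served as a stand-in for stray counts. Whether the counts of these markers are stray or low expression in NGP was not tested. The 6 such markers in the table summed to 85 ethanol and 101 Nutlin-3 counts. LYZ had a share of large columns of 21.2% with ethanol and 40.7% with Nutlin-3, LUM of 29.2% and 11.5%, and VWF of 0.885% and 1.77%. EPCAM had 14.2% and 16.8%, KRT19 2.65% and 12.4%, and DCN 6.19% and 1.77%. LYZ, KRT19 and LUM had intervals of the log2 ratio that excluded 0, so these markers are a rough gauge. In Nutlin-3 only LYZ had a larger share than E2F8. The 19.5% for E2F8 in Nutlin-3 lies within this range and is not read as expression, so the log2 ratio of E2F8 is one of counts and not of expression levels, while its 66.4% in ethanol lies above it. Each of the other members was seen in at least 64.6% of the large columns of either treatment. The part of stray counts in the differences was not tested.

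In the small columns the members were near the limit of detection. The 137 small columns of each treatment had median totals of 871 and 830 counts, and 51.1% of them in ethanol and 63.5% in Nutlin-3 held no member at all. E2F8 gave 5 ethanol and 0 Nutlin-3 counts. A floor of 3 counts in place of the 0 puts it 1.52-fold lower. This takes the 5 counts as exact, so it is no bound, and a difference is not shown on so few counts. E2F2 had 13 and 3, a log2 ratio of -1.81 (-4.43 to -0.12). E2F1 had 7 and 2, E2F6 had 9 and 2, and TFDP1 had 24 and 15, with intervals of the fold change that included 0. E2F4 had 8 and 8, E2F5 6 and 6, and E2F3 16 and 19. In the large columns alone the log2 ratio of E2F8 was -1.73 (-2.50 to -1.05) and that of E2F2 was -0.40 (-0.83 to 0.02), so the interval of E2F2 reached 0 there. Summed over the family the log2 ratio was -0.17 (-0.30 to -0.04) in large and -0.46 (-0.93 to -0.000784) in small columns.

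**Figure D4:**
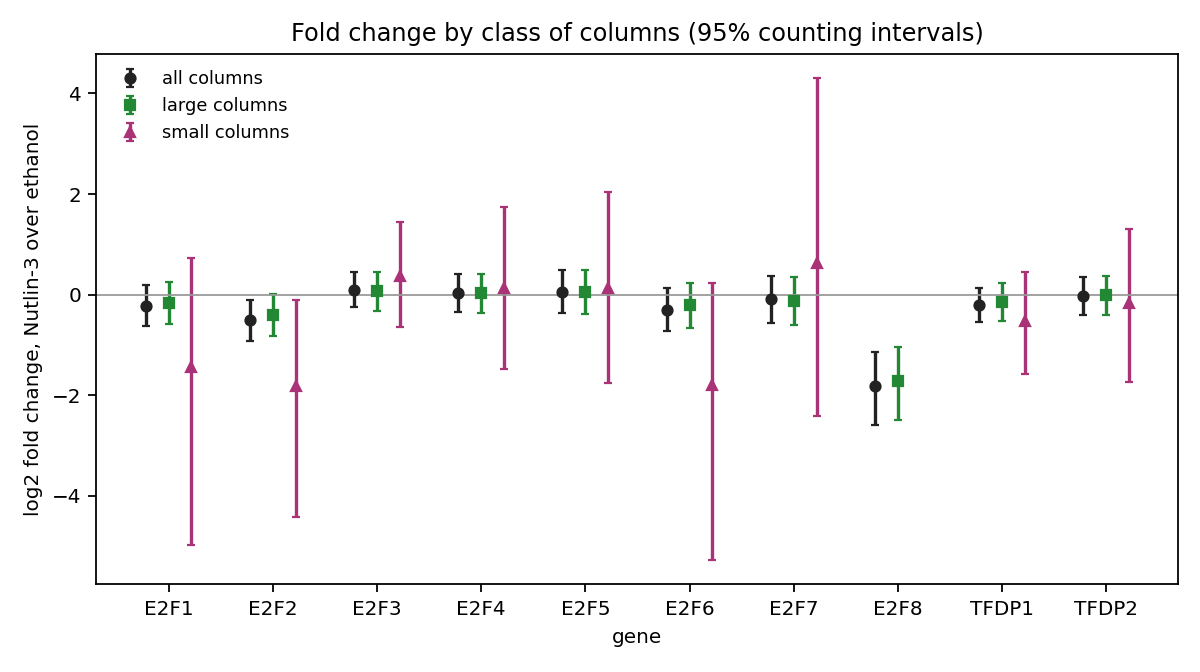
Log2 ratio, Nutlin-3 to ethanol, for each gene in all, large and small columns, with 95% counting intervals. Values in large columns stay close to those in all columns, the small columns have wide intervals, and E2F8 has no small-column point because its Nutlin-3 count there is 0.

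After each column was thinned at random to 700 counts, 194 columns of ethanol and 187 of Nutlin-3 were deep enough, and single members were too rare to compare. TFDP1 was found in 11.9% (7.67 to 17.3) with ethanol and 7.49% (4.15 to 12.2) with Nutlin-3. E2F2 was seen in 5.67% (2.86 to 9.92) and 3.21% (1.19 to 6.85), and E2F8 in 2 and 1 columns. Without thinning, 32.0% of all ethanol columns and 8.80% of all those with Nutlin-3 held E2F8. At least 1 member was seen in 42.8% (35.7 to 50.1) and 36.4% (29.5 to 43.7) of thinned columns, and every pair of intervals overlapped.

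Genes that E2F proteins act on lay mostly below 0. Of 50 G1/S genes known as E2F targets, 49 had a lower and 1 a higher level in Nutlin-3, where 50.3% of all genes were below 0. Past the fold limit there were 21 lower and 1 higher, against 12.4% and 14.9% of all genes, and the interval lay below 0 for 14, where 3.57% of all genes had such an interval, and above 0 for 1. Their median log2 ratio was -0.29. CHEK1, a checkpoint kinase, gave 111 ethanol and 62 Nutlin-3 counts, a log2 ratio of -0.79 (-1.27 to -0.33). CLSPN, its partner claspin, had 110 and 67, a log2 ratio of -0.67 (-1.13 to -0.22), and CHAF1B, a subunit of a histone chaperone, had 95 and 60 and -0.61 (-1.11 to -0.14). TYMS, which makes thymidylate, was least different among the targets whose mean reached 50 CPM, with 146 and 138 counts and -0.03 (-0.38 to 0.31). The 1 gene in the other direction was CCNE1, cyclin E1, named here after its value was seen, with 38 counts in ethanol and 64 in Nutlin-3 and a log2 ratio of 0.79 (0.20 to 1.42). Its paralogue CCNE2 had 72 and 45, a log2 ratio of -0.63 (-1.20 to -0.07).

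The next list joins genes that restrain E2F proteins, the pocket proteins and kinase inhibitors, with the G1 cyclins and kinases that release them. Among these 13 genes the median was -0.03, with 2 lower and 3 higher past the limit, against 12.4% and 14.9% of all genes. RBL1, which encodes p107 and is itself an E2F target, had 85 and 60 counts, at a log2 ratio of -0.45 (-0.96 to 0.04). CDK2 had 102 and 81, a log2 ratio of -0.28 (-0.73 to 0.15), and CDK4 had 608 and 516, a log2 ratio of -0.19 (-0.36 to -0.02). CDK6, with 214 and 232 counts and 0.16 (-0.11 to 0.44), and CCND1, with 228 and 236 and 0.10 (-0.17 to 0.36), were level within counting error. The 3 higher were CDKN1A, at 1.46 (1.07 to 1.89), CCNE1 and CCND2, the last with 3 and 17 counts and named after its value was seen. RB1 had 128 and 111 counts and RBL2 117 and 109, both with intervals that included 0.

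Of 8 genes of the MuvB core, its MYB partners and FOXM1, which share promoters with E2F4 complexes, 5 were lower past the limit and 0 higher, against 12.4% and 14.9% of all genes, with a median of -0.34. MYBL1 had 93 and 45 counts, at a log2 ratio of -0.99 (-1.55 to -0.47), the 1 gene of this list with an interval below 0. FOXM1 had 138 and 105, with -0.35 (-0.73 to 0.03), and RBBP4, a histone-binding subunit of many complexes, had 204 and 198 and 0.00 (-0.29 to 0.29). The 16 partners of E2F6 in PRC1.6 had a median of 0.02, from CBX3 at -0.24 (-0.51 to 0.02) to KDM5C at 0.27 (-0.12 to 0.68). None was past the limit, where 12.4% of all genes were lower and 14.9% higher. Among genes with 180 to 220 counts in both pools the shares were 4.90% and 3.78%, and with 260 to 320 counts 0.527% and 0.421%. At such levels 0 of 16 says little about the partners. SKP2, CCNF and FZR1, which direct E2F proteins to degradation, lay between -0.28 and -0.04 with 0 past the limit, against 12.4% and 14.9% of all genes. Of 5 apoptotic targets of E2F1, 4 passed the filter and all 4 were below 0, as were 50.3% of all genes, with a median of -0.27. Of the germline genes that E2F6 silences, SMC1B and MAEL had no row, SLC25A31 gave 2 ethanol and 0 Nutlin-3 counts, and STAG3 had 13 and 8. The 20 p53 targets, by contrast, had a median of 0.92, with 18 higher past the limit and 0 lower, where all genes stood at 14.9% and 12.4%. RBL1, CCNE1, CCNE2, MYBL2 and CDKN1A each stand in 2 of the lists. The lists were chosen with results in view and their medians are descriptions of the pools.

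**Figure D5:**
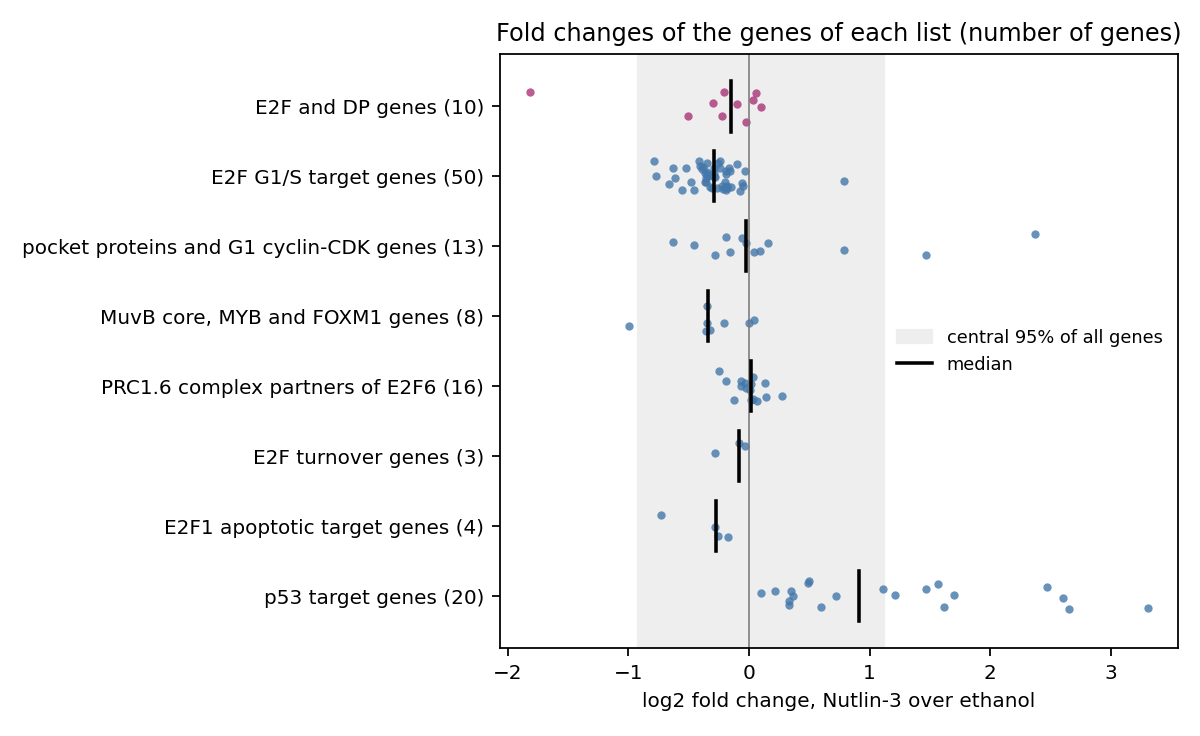
Log2 ratio, Nutlin-3 to ethanol, for the genes of each list that passed the filter, with the median as a bar and the central 95% of all genes shaded. The E2F targets lie left of 0 except CCNE1, with a median of -0.29, the p53 targets lie right of 0, and E2F8 is the leftmost point of the plot.

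TFDP1 had the most counts of the family, and its pattern over the 4 values of treatment and column class was compared with 8818 genes whose mean reached 50 CPM (counts scaled by library size). PIF1, NAA16, KNL1, LRRC8B and TMX4 were nearest, at distances of 0.038 to 0.066 in mean-centred log2 units. Within a distance of 0.2 there were 131 genes, so these 5 are not set apart from many others.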

How the data were processed

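Counts were deposited by the authors as whole numbers per gene and column, and per the labels' protocols cells were lysed in the ddSeq device before SureCell 3' library preparation. For the aligner, gene build, tag counting and cell filter the entry is the same: not given in the sources used here. No doublet caller was run, since columns were not treated as cells. Columns named treated were taken as Nutlin-3, from the label of those libraries, and untreated as ethanol. Counts were summed per treatment without the 62 ERCC species and scaled with TMM factors, 0.9995 for Nutlin-3 and 1.0005 for ethanol (edgeR 4.0.16, R 4.3.3, filterByExpr with a minimum count of 10). Fold changes had 0.5 counts added to each sum and intervals from the exact binomial share of both counts. The intervals were tried only on simulated Poisson counts. These lack the even spread of the real columns, so the trial does not show the coverage in these data. Since 1 pool stands for each treatment, edgeR served for scaling and filtering only and no test was run. Thinning, shares and figures used Python 3.11.15. Symbols came from a table matched by identifier. Named were the 10 members and, from each list, the 3 lowest and 3 highest genes whose mean CPM reached 50, with CDKN1A and MDM2 as checks of the treatment. Outside this rule RB1, RBL2, CCNE1, CCNE2, CCND2, the germline genes, the cell type markers and the overlapping or pseudogene rows were named after their values were seen. The members and lists were chosen with earlier results of these data known, as was the split at 4000 counts. Motif letters were chosen after the windows had been seen. Counts are of 3' tags, and no level is compared between genes. Alternatives were DESeq2 1.42.0 size factors, ERCC scaling, large or small columns alone, columns with names of 1 treatment, columns in place of counts, thinning of the larger pool, 1 count added, no filter and a fold of 1.5. Values of some single genes are not reported here.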

Additional observations from a re-analysis of the deposited data

How the results depend on the processing

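Of 72 alternative values for single members, 58 stayed within the counting interval of the reported value, 14 moved out of it and 0 reversed a difference whose interval excluded 0. Only E2F2 and E2F8 had such an interval, so values of the other members could not count as reversed. With ERCC scaling E2F3 went from 0.10 to -0.37 (-0.72 to -0.01) and E2F4 from 0.03 to -0.43 (-0.81 to -0.06). With ERCC counts as library size the summed log2 ratios were -0.65 for the activators, -0.42 for E2F4 with E2F5, -0.999 for E2F6 to E2F8, -0.59 for the DP partners and -0.66 for all 10, the median of the E2F targets was -0.76, and 10 members were lower past the fold limit, as were 73.6% of all genes. In small columns alone the sums were -0.44 for the activators, -1.45 for E2F6 to E2F8, -0.42 for the DP partners and -0.46 for all 10, the target median was -0.79, and of 3 members that passed the filter 2 were lower and 1 was higher past the limit, against 26.6% and 27.9% of genes. In columns whose name occurs in 1 treatment the sums were -1.25 for the activators, 0.33 for E2F4 with E2F5 and -0.86 for all 10, and the target median was -1.22. There the sum of E2F6 to E2F8 had no value because a pool held 0 counts, and no member passed the filter. With a fold of 1.5, 1 member was lower. No paired analysis was possible because the columns do not name their library, and for the same reason no library could be left out in turn. With about 1 count per large column for most members, small differences were not detectable at this depth. For members seen in nearly every large column, moderate differences may be missed as well.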
